A study of Rattus norvegicus with 6 samples.

Results

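The epidermal differentiation complex is a cluster of genes on rat chromosome 2, and its genes are described here in back skin of Sprague-Dawley rats, an outbred laboratory strain, after 2 inhibitors of the epidermal growth factor receptor (EGFR). Its members were taken as all rows of the deposited count table that start between 190 and 194 Mb on chromosome 2, except the neutrophil-associated S100a8 and S100a9, which left 66 of 34225 loci. Bulk RNA was sequenced from 6 libraries in 3 groups of 2. Rats of the gefitinib group received 80 mg/kg of gefitinib by mouth once a day until a rash appeared, rats of the afatinib group received 30 mg/kg of afatinib by mouth daily until a rash appeared, and rats of the untreated group received neither drug. The sample titles call the untreated libraries WT. Gefitinib is a reversible EGFR inhibitor and afatinib an irreversible inhibitor of EGFR and related ErbB receptors. The doses differ, the labels do not give the number of days to the rash, nor do they say whether the 2 libraries of a group come from separate rats, so p-values measure only the spread between these libraries.

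In the epidermis, keratinocytes leave the basal layer and move outward while they exchange growth for cornification. In the last steps transglutaminases cross-link small proteins beneath the cell membrane into the cornified envelope, and many of these proteins are encoded side by side in the epidermal differentiation complex. The locus holds small proline-rich (Sprr) and late cornified envelope (Lce) genes, the envelope precursor involucrin, fused S100 genes such as trichohyalin and the filaggrin family, and S100 calcium-binding proteins at both ends. Trichohyalin is best known from the inner root sheath and medulla of the hair follicle. EGFR signalling holds basal keratinocytes in a growing state, and patients treated with its inhibitors often develop a rash.

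Promoter windows of the members that the results turn on were read from RefSeq (build GRCr8), placed by the annotated gene start. That build is not known to be the build of the count table, so the 2 sets of coordinates are not to be set against each other. Each window runs from 250 bases before to 50 bases after the gene start, 5′ to 3′ on the gene's own strand, and is shown in lower case with capitals marking matches to the AP-1 motif TGANTCA and to the TATA box TATAAA. AP-1 is a family of dimeric transcription factors known to act on Sprr and involucrin promoters. Sprr1b (chr2:180706306-180706605, minus strand) and Sprr1a (chr2:180752576-180752875, minus strand) are shown as a pair of envelope precursors that were higher with both drugs, and Lce1m (chr2:181334251-181334550, minus strand) as a gene with no count in any treated library.
Sprr1b: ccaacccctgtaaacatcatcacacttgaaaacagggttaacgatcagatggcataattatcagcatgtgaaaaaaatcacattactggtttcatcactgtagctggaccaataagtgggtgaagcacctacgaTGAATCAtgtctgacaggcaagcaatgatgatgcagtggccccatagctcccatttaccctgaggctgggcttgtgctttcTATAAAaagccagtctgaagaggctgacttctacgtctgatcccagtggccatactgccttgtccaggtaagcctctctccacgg
Sprr1a: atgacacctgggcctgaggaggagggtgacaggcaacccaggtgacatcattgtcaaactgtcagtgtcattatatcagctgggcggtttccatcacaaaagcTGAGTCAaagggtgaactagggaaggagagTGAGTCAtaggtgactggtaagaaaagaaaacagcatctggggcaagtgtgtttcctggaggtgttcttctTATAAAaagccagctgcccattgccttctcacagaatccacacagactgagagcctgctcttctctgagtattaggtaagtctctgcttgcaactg
Lce1m: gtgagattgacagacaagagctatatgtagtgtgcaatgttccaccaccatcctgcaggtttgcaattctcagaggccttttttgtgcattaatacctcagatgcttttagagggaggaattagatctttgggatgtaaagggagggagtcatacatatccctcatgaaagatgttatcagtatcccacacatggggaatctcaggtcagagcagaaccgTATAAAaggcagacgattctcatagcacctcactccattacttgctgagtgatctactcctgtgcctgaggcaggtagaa
The Sprr1b window holds 1 AP-1 match, at position -116 from the start, and the Sprr1a window holds 2, at -147 and -117. All 3 windows hold the TATA box, at -35 in Sprr1b, -46 in Sprr1a and -30 in Lce1m. The longest stretch shared by Sprr1a and Sprr1b covers 13 bases and begins at this TATA box (TATAAAaagccag).

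Stretches of 61 bases around the AP-1 match are shown for 4 other members, the proline-rich protein gene Prr9 (chr2:180296571-180296631, minus strand) and the fused S100 genes Crnn (chr2:181429262-181429322, plus strand), Rptn (chr2:181743334-181743394, plus strand) and Tchh (chr2:181786983-181787043, plus strand), so that the letters beside the motif can be compared.
Prr9: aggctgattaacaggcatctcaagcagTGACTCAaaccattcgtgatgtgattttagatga
Crnn: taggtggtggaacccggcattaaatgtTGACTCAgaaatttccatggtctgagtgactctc
Rptn: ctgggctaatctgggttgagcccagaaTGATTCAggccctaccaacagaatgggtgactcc
Tchh: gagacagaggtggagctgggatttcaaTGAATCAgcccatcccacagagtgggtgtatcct
RefSeq windows were matched by symbol for 22 members, which have 23 windows because Pglyrp4 has more than 1. On either strand, TGANTCA was found in 7 of the 23 windows (30.4%), against 7.33% of all 33469 RefSeq windows of the same length. TATAAA was found in 10 of the 23 (43.5%), against 14.2% of all windows, and CACCC, the core of a KLF motif, in 17 (73.9%), against 54.9%. The AP-1 letters do not overlap those of the other 2 motifs. Of the 9 matched members that were called higher with gefitinib, 6 hold an AP-1 match, namely Prr9, Sprr1b, Sprr1a, Crnn, Rptn and Tchh. Of the 13 others 1 does, the sperm mitochondrial gene Smcp, which had 2 counts in all libraries together. Among these 13, only S100a6, Lce6a, Kprp and Lce1m had enough counts for an expression test. The rest, Smcp included, have no call to set beside the motif. The annotated start need not be where transcription begins. In the Sprr2d window the start falls on an ATG, and in the Crnn window an ATG lies close after the start. A motif present or absent in these windows may therefore not be that of a promoter. All matches are a description of the letters in the windows and were not tested.

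Libraries held 17206456 to 22086673 counts over 18487 to 19913 loci with a count. Markers of other tissue layers differed between the libraries. The summed level of 7 skeletal muscle genes (of 9 listed), in CPM (read counts scaled with TMM to a common library size), was 29096 and 61402 with gefitinib, 130043 and 29970 with afatinib, and 212716 and 190985 in untreated skin, with none of the 7 at 0 throughout. The part of muscle in the results below was not tested. Afatinib replicate 1 stood apart: across genes its log levels correlated at 0.935 and 0.939 with the untreated libraries, against 0.925 with afatinib replicate 2. Scaling by library size alone, in place of TMM, moves the median log2 change of all genes to 0.73 for gefitinib and 0.71 for afatinib, against 0.04 and 0.09 with TMM. CPM values and log2 changes below are therefore relative to the TMM scale unless another scaling is named. Shares of counts are not on that scale: they are raw counts over the library total. Deposited FPKM values carry their own scaling.

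Of the 66 members, 54 had at least 1 count, 12 had none in any library, and 28 passed the filter on low counts and were tested together with all 16398 such loci of the genome. The files describe 49 members as protein-coding, 28 carry a gene symbol, and the other 38 carry only a clone, locus or predicted name or none. Rows without a symbol are described by the Pfam protein family that the files give for them, and no row in the interval carries the symbols for loricrin, involucrin or filaggrin.

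Transcripts of the locus took up a larger share of the counts in every treated library than in either untreated library. The share was 0.203% and 0.121% with gefitinib, 0.109% and 0.215% with afatinib, and 0.0479% and 0.0372% in untreated skin. The 95% Wilson intervals, which cover counting error only, ran from 0.107% to 0.110% in the lowest treated library and from 0.0470% to 0.0489% in the highest untreated one. Tchh alone made up 40.4% and 22.4% of the locus counts with gefitinib and 8.66% and 29.2% with afatinib, against 0.517% and 2.54% in untreated skin. The 2 treated libraries with the largest locus share, gefitinib replicate 1 and afatinib replicate 2, were also those with the highest Tchh share in their group. With 2 libraries against 2, a two-sided exact permutation test of a single value cannot go below p = 0.333, so sums and shares are given without a test.

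**Figure D1:**
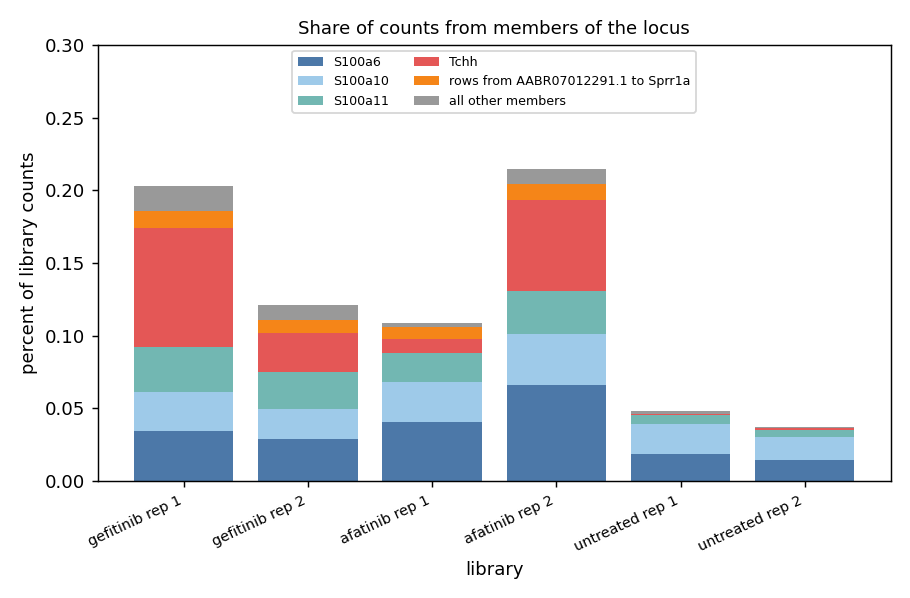
Percent of each library's counts that fell on members of the locus, stacked by gene or group of genes, for gefitinib, afatinib and untreated libraries from left to right. The treated bars reach between 0.109% and 0.215%, the untreated bars 0.0372% and 0.0479%, and the Tchh segment changes most in size from bar to bar.

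With gefitinib, 18 of the 28 tested members were called higher than in untreated skin and 3 lower, by edgeR's quasi-likelihood test at an adjusted p under 0.05. Over all 16398 tested loci, 12.3% were called higher and 5.45% lower in that comparison. With afatinib, 15 of the 28 were called higher, where 3.6% of all tested loci were, and 0 were called lower, where 0.372% were. The 15 members called higher with afatinib were all among the 18 called higher with gefitinib; both comparisons use the same untreated libraries. At an unadjusted p under 0.05, 3 members were lower with afatinib, and DESeq2 called 1 of them. The members' counts describe the rows that passed the filter: 22 members had 0 counts in both untreated libraries and counts elsewhere, 10 of these passed the filter, and they could only pass through their counts in treated skin. With these 10 included, the median log2 change of the 28 was 4.51 with gefitinib and 4.23 with afatinib. Over all tested loci it was 0.04 and 0.09. Fitted values of members at 0 in untreated skin do not measure a size. These medians therefore do not measure the size of the change across the locus. Irrespective of the filter, 26 of the 54 members with a count were above both untreated libraries in all 4 treated libraries, and 8 were below both, where 21.6% and 15.2% of all 22290 loci with a count were.

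These calls need both untreated libraries. Without untreated replicate 1, 2 members were called higher with gefitinib (AABR07012302.1 and Sprr1b) and 0 with afatinib, and 7 genes of the whole table were called higher with gefitinib. Without untreated replicate 2, 0 members were called in either comparison. Leaving out gefitinib replicate 1 or 2 left 10 and 8 members higher with gefitinib and 3 with afatinib in either case, and leaving out afatinib replicate 2 left 5 higher with afatinib. Without afatinib replicate 1, the library that stood apart, all 15 kept their call and 17 members were higher. With limma-voom in place of edgeR, 3 of the 15 afatinib calls held (AABR07012302.1, Sprr1a and Sprr1b), and the limma-voom adjusted p of the other 12 ran between 0.0669 and 0.143.

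**Figure D2:**
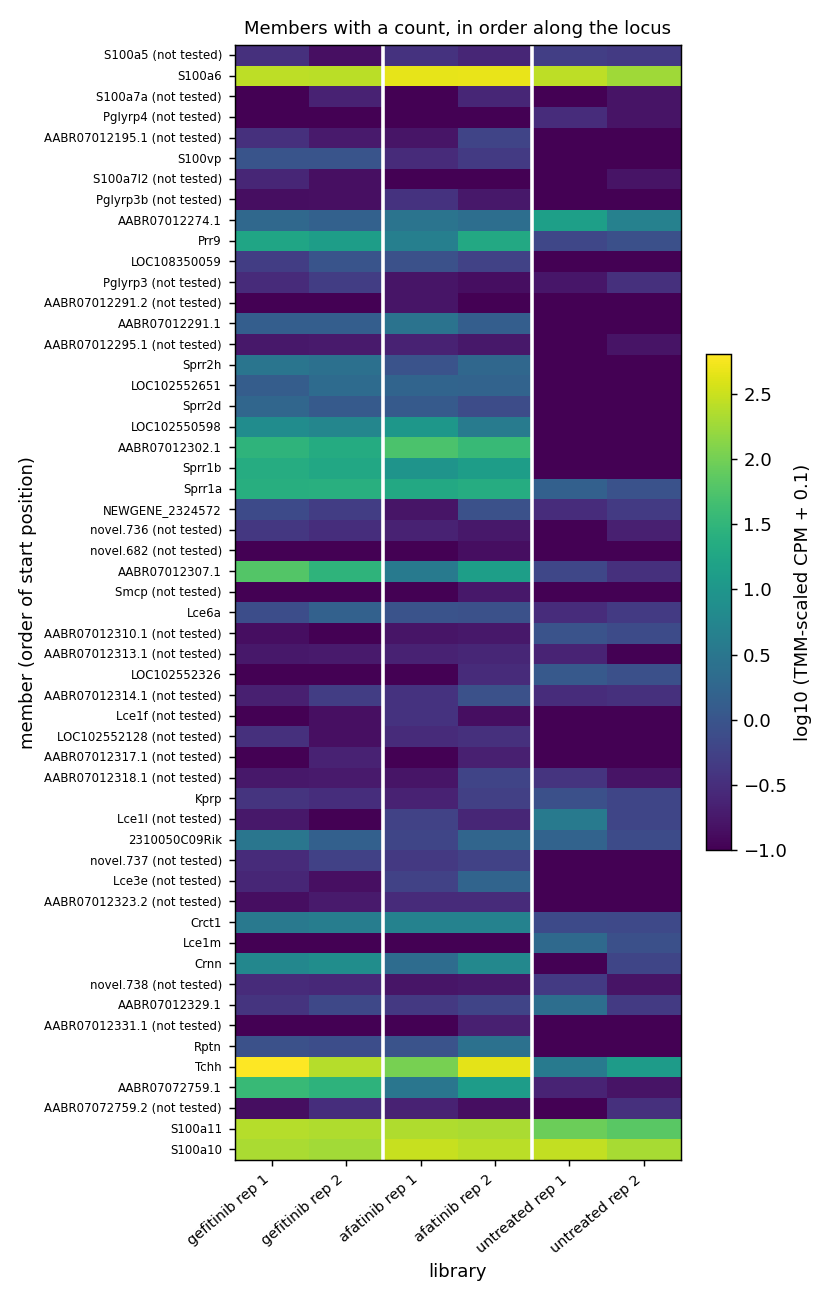
Level of each of the 54 members with a count, as log10 of TMM-scaled CPM plus 0.1, in order along the locus from top to bottom, with the gefitinib libraries at the left, the afatinib libraries next and the untreated libraries at the right. The tested rows from AABR07012291.1 to Sprr1a and those of Tchh and AABR07072759.1 are darker in both untreated libraries than in all 4 treated ones, whereas S100a6, S100a10 and S100a11 are bright in every library.

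The small proline-rich genes were almost silent in untreated skin and were counted in every treated library. The 6 rows of this family, 5 with a symbol and AABR07012291.1 by its Pfam family, summed to 52.5 and 48.3 CPM with gefitinib, 33.4 and 39.4 CPM with afatinib, and 1.38 and 0.815 CPM in untreated skin. Of these rows 5 were tested and all 5 were called higher with each drug, while Sprr3 had no count in any library. Members of the family are near-identical in stretches, so the split of reads between its rows is uncertain.

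Sprr1a (chromosome 2, 192669143-192671059, minus strand), an envelope precursor cross-linked by transglutaminase, had 622 and 566 counts with gefitinib, 302 and 582 with afatinib, and 20 and 14 in untreated skin. Its mean level was 24.6 ± 0.273 CPM with gefitinib, 21.0 ± 1.99 CPM with afatinib and 1.10 ± 0.402 CPM in untreated skin (SD, n = 2 each). The log2 change was 4.49 ± 0.36 with gefitinib (SE, edgeR adjusted p = 0.00608) and 4.26 ± 0.35 with afatinib (edgeR adjusted p = 0.00519). The treated libraries lay close together and none came near an untreated one.

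Sprr1b (192623244-192623681, minus strand), the other Sprr1 gene, had 566 and 429 counts with gefitinib and 141 and 343 with afatinib, against 0 in both untreated libraries. For a group at 0, a fold is bounded with 3 counts in each of its libraries, and on that floor Sprr1b was at least 107-fold higher with gefitinib (edgeR adjusted p = 0.00608) and at least 58.6-fold higher with afatinib (edgeR adjusted p = 0.00563). Afatinib replicate 1 held fewer Sprr1b counts than any other treated library.

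Sprr2h (192416615-192434072, plus strand) and Sprr2d (192481028-192481273, minus strand) belong to the Sprr2 branch, which codes for shorter envelope proteins. Sprr2h had 75 and 55 counts with gefitinib and 13 and 46 with afatinib, against 0 in both untreated libraries, which makes it at least 14-fold higher with gefitinib (edgeR adjusted p = 0.0133) and at least 6.85-fold higher with afatinib (edgeR adjusted p = 0.0369). Without afatinib replicate 2 the afatinib bound was 4.42 and the adjusted p 0.0948. Sprr2d had 44 and 25 counts with gefitinib and 17 and 17 with afatinib, against 0 in untreated skin, at least 7.38-fold and 4.61-fold higher (edgeR adjusted p = 0.0177 and 0.049); the afatinib call is lost with RLE scaling (adjusted p = 0.0526). AABR07012291.1, which spans a longer stretch and overlaps a row of the Lce family, had 32 and 29 counts with gefitinib and 41 and 33 with afatinib and none in untreated skin (edgeR adjusted p = 0.0182 and 0.035).

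Rows without a family annotation inside the same stretch followed the Sprr genes. AABR07012302.1 (192538899-192616141, plus strand), a protein-coding row with no annotated family that lies just before Sprr1b, had 758 and 505 counts with gefitinib and 807 and 951 with afatinib, against 0 in both untreated libraries. It was at least 136-fold higher with gefitinib (edgeR adjusted p = 0.00608) and at least 233-fold higher with afatinib (edgeR adjusted p = 0.00354). LOC102550598 had 179 and 127 counts with gefitinib and 156 and 96 with afatinib and none in untreated skin (edgeR adjusted p = 0.0113 and 0.0274), and LOC102552651 had 31 and 46 with gefitinib and 24 and 40 with afatinib and none in untreated skin (edgeR adjusted p = 0.015 and 0.035). Together the 10 rows from AABR07012291.1 to Sprr1a, of which 9 had a count, held 2309 and 1784 counts with gefitinib and 1503 and 2110 with afatinib, against 20 and 15 in untreated skin. All but 1 of the untreated counts were on Sprr1a.

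The summed level of the 6 listed basal keratinocyte markers was also higher in all 4 treated libraries, at 2352 and 2342 CPM with gefitinib, 2347 and 3969 CPM with afatinib, and 1439 and 800 CPM in untreated skin, with none of the 6 at 0 throughout. Its members did not all differ: Krt5 and Tp63 were called higher with gefitinib, at log2 changes of 1.83 ± 0.47 and 1.93 ± 0.34 (SE, edgeR adjusted p = 0.0386 and 0.0162), and none was called with afatinib. Krt5 and Krt14 make up most of the sum. Itgb4 had 94.7 and 69.2 CPM with gefitinib, 91.2 and 156 CPM with afatinib, and 109 and 105 CPM in untreated skin, and Krt15 and Col17a1 overlapped between treated and untreated libraries. Per 1000 CPM of this sum, the Sprr rows stood at 22.3 and 20.6 with gefitinib, 14.2 and 9.92 with afatinib, and 0.961 and 1.02 in untreated skin. The 4 suprabasal markers that are in the file summed to 200 and 240 CPM with gefitinib, 180 and 282 CPM with afatinib, and 269 and 137 CPM in untreated skin, so those groups overlapped. In bulk tissue, fewer cells of a type and less RNA per cell cannot be told apart.

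Involucrin is the scaffold on which the cornified envelope is first laid down. The row that carries the involucrin Pfam domains, AABR07012307.1 (192761538-192763577, minus strand), had 1543 and 670 counts with gefitinib, 53 and 349 with afatinib, and 8 and 4 in untreated skin. Its mean level was 44.9 ± 22 CPM with gefitinib, 8.45 ± 7.08 CPM with afatinib and 0.393 ± 0.227 CPM in untreated skin (SD, n = 2 each). The log2 change was 6.85 ± 0.88 with gefitinib (SE, edgeR adjusted p = 0.0105) and 4.45 ± 0.84 with afatinib (edgeR adjusted p = 0.0409). Without afatinib replicate 2 the afatinib value was 3.09 with an adjusted p of 0.088, without afatinib replicate 1 it was 5.11, and without untreated replicate 1 it was 5.15. Leaving out untreated replicate 1 gave 7.56 for gefitinib, and leaving out gefitinib replicate 1 gave 6.17. Per 1000 CPM of the suprabasal markers the row stood at 302 and 122 with gefitinib, 19.1 and 47.7 with afatinib, and 2.06 and 1.70 in untreated skin.

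The genes around the envelope precursors did not all follow. Prr9 (192025875-192027225, minus strand), which codes for a small proline-rich protein, had 444 and 294 counts with gefitinib, 65 and 517 with afatinib, and 8 and 13 in untreated skin. Its log2 change was 4.51 ± 0.79 with gefitinib (SE, edgeR adjusted p = 0.0155) and 4.19 ± 0.78 with afatinib (edgeR adjusted p = 0.0391). The afatinib value was 2.61 without afatinib replicate 2 and 4.90 without afatinib replicate 1, and its call held only when the library left out was afatinib replicate 1. Crct1 (193330397-193330699, minus strand), a cysteine-rich gene named for its C-terminus, had 85 and 90 counts with gefitinib, 73 and 123 with afatinib, and 9 and 10 in untreated skin. Its log2 change was 2.58 ± 0.46 with gefitinib (edgeR adjusted p = 0.0161) and 2.97 ± 0.46 with afatinib (edgeR adjusted p = 0.032), and all 4 treated libraries held at least 73 counts. Per 1000 CPM of the basal markers Crct1 stood at 1.42 and 1.68 with gefitinib, 2.02 and 1.19 with afatinib, and 0.432 and 0.727 in untreated skin.

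Kprp, a keratinocyte proline-rich gene, had 7 and 5 counts with gefitinib, 2 and 11 with afatinib, and 11 and 9 in untreated skin and was not called; it falls below the level set for naming and is given here because it lies among the Lce genes. The peptidoglycan recognition genes Pglyrp3, Pglyrp3b and Pglyrp4, which code for antibacterial proteins, had at most 9 counts in any library and were not tested. Pglyrp4 had no count in any treated library, against 3 and 1 in untreated skin. No direction can be read from counts this low.

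AABR07012274.1 (191984773-191986170, minus strand), a protein-coding row between Pglyrp3b and Prr9 with no annotated family, went the other way. It had 47 and 32 counts with gefitinib, 43 and 58 with afatinib, and 202 and 78 in untreated skin. The log2 change was -2.50 ± 0.60 with gefitinib (SE, edgeR adjusted p = 0.0331) and -1.88 ± 0.59 with afatinib (edgeR adjusted p = 0.121). The 2 untreated libraries differed, and the gefitinib value was -1.48 without untreated replicate 1 and -3.10 without untreated replicate 2. The gefitinib call is lost when counts are scaled by library size only (-1.78, edgeR adjusted p = 0.0825) and with limma-voom (adjusted p = 0.0557). By deposited FPKM, which is per transcript length, this row ranked number 4 of the locus in untreated skin at 6.93 ± 4.97 (SD, n = 2). Per 1000 CPM of the suprabasal markers it stood at 9.20 and 5.84 with gefitinib, 15.5 and 7.92 with afatinib, and 52.0 and 33.1 in untreated skin.

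The late cornified envelope genes code for cysteine- and glycine-rich envelope proteins added late in differentiation. Their counts were low, and few of these rows could be tested. Of the 16 Lce rows, 5 with a symbol and 11 by Pfam, 14 had a count and 3 passed the filter. By CPM, 5 rows were above both untreated libraries in all 4 treated libraries and 4 were below both. Over all 22290 loci with a count, 21.6% were above and 15.2% below. Some of these rows rest on very few counts, such as AABR07012295.1, with 2 in each treated library against 0 and 1 in untreated skin. No direction of the family can be read from them. The whole family summed to 45 and 63 counts with gefitinib, 49 and 133 with afatinib, and 116 and 58 in untreated skin. On the TMM scale the sum was 1.76 and 2.76 CPM with gefitinib, 3.18 and 5.13 CPM with afatinib, and 8.02 and 3.37 CPM in untreated skin, so that both gefitinib libraries were below both untreated ones and the afatinib libraries overlapped with untreated. As with Sprr, the rows are close copies of each other and the split of reads between them is uncertain.

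Lce1m (193333800-193335002, minus strand) had 0 counts in all 4 treated libraries, against 27 and 13 in untreated skin. On the floor of 3 counts per library it was at least 10.5-fold lower with gefitinib (edgeR adjusted p = 0.0302) and at least 8.45-fold lower with afatinib (edgeR adjusted p = 0.0642). Without untreated replicate 1 these bounds were 6.08 and 4.87, and without untreated replicate 2 they were 15 and 12. DESeq2 did not call it with gefitinib (adjusted p = 0.259). Its neighbour Crct1, which ends 3100 bases before Lce1m begins and is read on the same strand, was the one called higher with both drugs. LOC102552326, a row of the Lce Pfam family, had 0 and 0 counts with gefitinib, 0 and 5 with afatinib, and 15 and 13 in untreated skin, at least 7.21-fold lower with gefitinib (edgeR adjusted p = 0.0378) and not called with afatinib (edgeR adjusted p = 0.201).

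Other Lce rows had few counts. Lce1l (193164403-193165736, minus strand) had 2 and 0 counts with gefitinib, 7 and 4 with afatinib, and 50 and 9 in untreated skin, and did not pass the filter. Lce3e (193275507-193275803, plus strand) had 4 and 1 counts with gefitinib, 7 and 41 with afatinib, and 0 in both untreated libraries, and most of them came from afatinib replicate 2. Lce6a (192811766-192812008, minus strand), the Lce row nearest to the involucrin row, had 18 and 32 counts with gefitinib, 13 and 20 with afatinib, and 3 and 6 in untreated skin, with log2 changes of 1.88 ± 0.73 and 1.5 ± 0.74 (SE, edgeR adjusted p = 0.108 and 0.285). Counts in 5 Lce rows were seen only in treated skin and in 1 row, Lce1m, only in untreated skin.

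**Figure D3:**
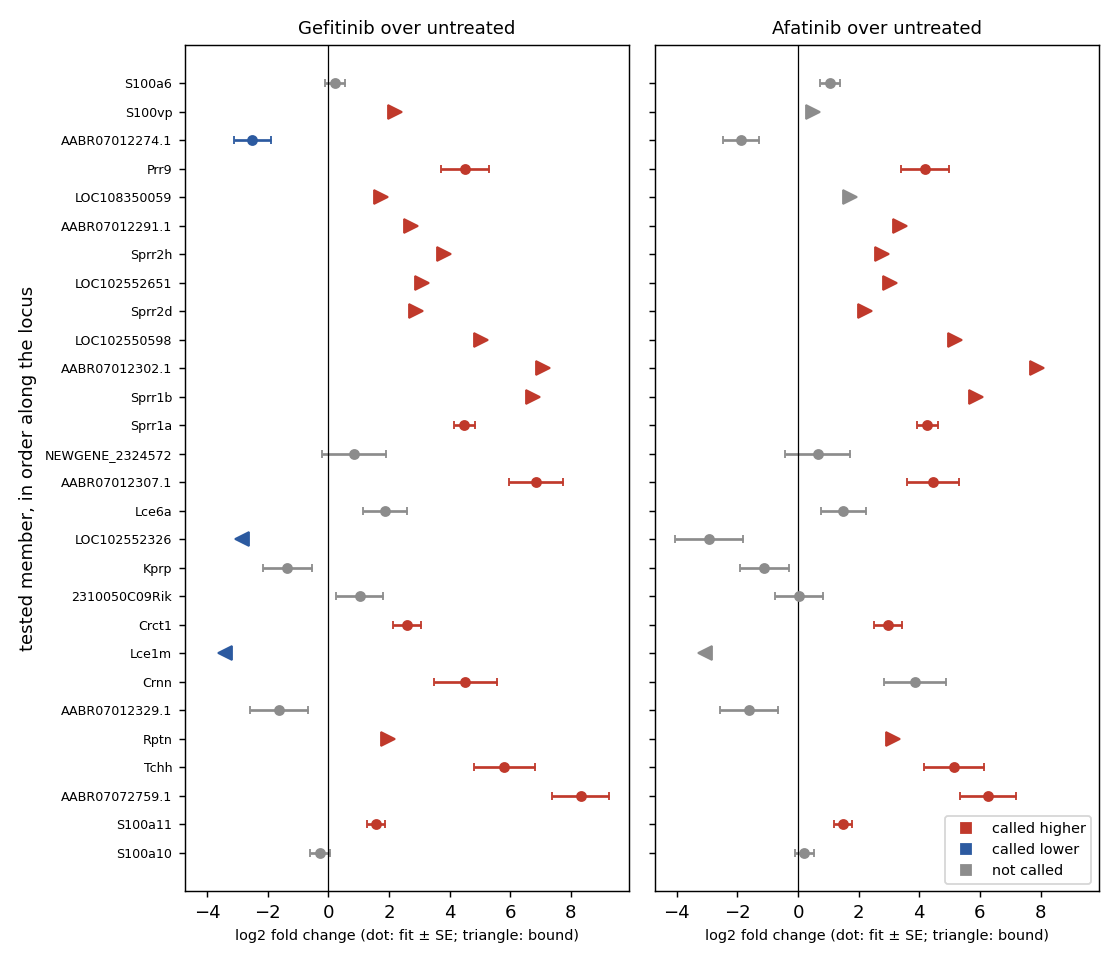
Log2 change of the 28 tested members over untreated skin, in order along the locus from top to bottom, for gefitinib at the left and afatinib at the right. Dots are fitted values with their SE and triangles are bounds for genes at 0 in one group; red marks genes called higher, blue lower and grey not called. The run from AABR07012291.1 to Sprr1a is red in both panels, and the 3 blue marks (AABR07012274.1, LOC102552326 and Lce1m) stand in the gefitinib panel.

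Fused S100 genes code for long repeat proteins with an S100 domain at the start, and all 3 with a symbol were higher with gefitinib. Trichohyalin (Tchh, 193778042-193783761, plus strand), which hardens the inner root sheath of the hair, had 16228 and 5556 counts with gefitinib, 1619 and 11656 with afatinib, and 50 and 209 in untreated skin. Its mean level was 440 ± 278 CPM with gefitinib, 277 ± 243 CPM with afatinib and 7.81 ± 6.15 CPM in untreated skin (SD, n = 2 each). The log2 change was 5.81 ± 1.02 with gefitinib (SE, edgeR adjusted p = 0.0155) and 5.14 ± 0.99 with afatinib (edgeR adjusted p = 0.0412). Every treated library was above both untreated ones, but the 2 libraries of each group lay far apart.

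Leaving out single libraries moved the Tchh values. With gefitinib the log2 change was 5.17 without untreated replicate 1, 6.99 without untreated replicate 2 and 4.90 without gefitinib replicate 1. With afatinib it was 4.50 and 6.32 without untreated replicates 1 and 2, 5.83 without afatinib replicate 1, and 3.68 without afatinib replicate 2, where the adjusted p was 0.0864.

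Inner root sheath keratins differed in the same libraries. The 6 listed genes that are in the file, of 7, summed to 3078 and 2897 CPM with gefitinib, 963 and 2467 CPM with afatinib, and 64.8 and 241 CPM in untreated skin, and none was at 0 throughout. All 6 were called higher with gefitinib and 3 of 6 with afatinib, where 12.3% and 3.6% of all tested loci were. Per 1000 CPM of these keratins Tchh stood at 207 and 83.9 with gefitinib, 109 and 182 with afatinib, and 53.4 and 50.4 in untreated skin. The part of the inner root sheath in the Tchh result was not tested.

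Cornulin (Crnn, 193429176-193431487, plus strand), a fused S100 protein of squamous epithelium, had 144 and 165 counts with gefitinib, 33 and 154 with afatinib, and 0 and 9 in untreated skin. The log2 change was 4.52 ± 1.04 with gefitinib (SE, edgeR adjusted p = 0.0297) and 3.86 ± 1.03 with afatinib (edgeR adjusted p = 0.082). The gefitinib value was 3.60 without untreated replicate 1 and 10.07 without untreated replicate 2, which leaves the untreated group at 0, where a fitted value does not measure the size. Repetin (Rptn, 193724248-193728302, plus strand), an envelope precursor also found in hair follicle and tongue, had 20 and 16 counts with gefitinib and 13 and 65 with afatinib, against 0 in both untreated libraries. It was at least 3.89-fold higher with gefitinib (edgeR adjusted p = 0.0334) and at least 8.77-fold higher with afatinib (edgeR adjusted p = 0.0425), and the afatinib bound was 4.42 without afatinib replicate 2 and 13.1 without afatinib replicate 1.

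AABR07072759.1 (193807281-193809637, plus strand), a row with an S100-type calcium-binding domain that lies after Tchh, had 917 and 656 counts with gefitinib, 47 and 324 with afatinib, and 2 and 1 in untreated skin. The ratio of its scaled counts was 343 with gefitinib (exact 95% interval 117 to 1666, edgeR adjusted p = 0.00971) and 94.7 with afatinib (32.2 to 461, edgeR adjusted p = 0.0308). These exact intervals pool the reads of each group and leave out the spread between libraries. The fitted 95% intervals, which include it, were 6.14 to 10.5 in log2 with gefitinib and 4.12 to 8.43 with afatinib. On the log2 scale the fitted afatinib change was 6.28, and it was 4.86 without afatinib replicate 2, 6.95 without afatinib replicate 1 and 6.93 without untreated replicate 1. The fitted gefitinib change was 8.32, and 8.98 without untreated replicate 1. It had the lowest treated count in afatinib replicate 1, as did Tchh and the involucrin row. AABR07012329.1, the row with the filaggrin Pfam domain, had 7 and 13 counts with gefitinib, 5 and 13 with afatinib, and 33 and 6 in untreated skin and was not called (edgeR adjusted p = 0.254 and 0.371); it is named, after its values were seen, because filaggrin is a main product of the locus.

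The S100 genes at both ends of the locus gave its most abundant transcripts. S100 proteins are small calcium-binding proteins, and those named here are expressed in many cell types. By deposited FPKM the 3 highest members in each group were S100a11, S100a6 and S100a10. S100a11 was the highest with gefitinib, at 770 ± 11.6 FPKM, the second with afatinib, at 708 ± 42.8 FPKM, and the third in untreated skin, at 266 ± 47.9 FPKM (SD, n = 2 each). S100a6 was the highest with afatinib, at 945 ± 3.46 FPKM, the second with gefitinib, at 545 ± 2.70 FPKM, and the highest in untreated skin, at 478 ± 115 FPKM. Tchh was number 4 in both treated groups, at 92.1 ± 57.1 FPKM with gefitinib and 56.4 ± 48.7 FPKM with afatinib, and number 10 in untreated skin, at 1.69 ± 1.34 FPKM.

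S100a11 (193866951-193868502, plus strand), a transglutaminase substrate of the envelope, had 237 and 227 CPM with gefitinib, 224 and 213 CPM with afatinib, and 88.2 and 68.0 CPM in untreated skin. It was called higher with both drugs, with a log2 change of 1.57 ± 0.29 with gefitinib (SE, edgeR adjusted p = 0.017) and 1.48 ± 0.29 with afatinib (edgeR adjusted p = 0.0412). Per 1000 CPM of the basal keratinocyte markers it stood at 101 and 96.9 with gefitinib, 95.6 and 53.6 with afatinib, and 61.3 and 85.0 in untreated skin, and there the afatinib and untreated groups overlapped.

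S100a10 (193892589-193901236, plus strand), the partner of annexin A2, lies beside S100a11 and had 212 and 189 CPM with gefitinib, 305 and 253 CPM with afatinib, and 284 and 199 CPM in untreated skin. Its log2 change was -0.27 ± 0.32 with gefitinib (SE, edgeR adjusted p = 0.558) and 0.21 ± 0.32 with afatinib (edgeR adjusted p = 0.731). S100a6 (190007216-190008511, plus strand), at the other end, had 265 and 257 CPM with gefitinib, 455 and 472 CPM with afatinib, and 261 and 185 CPM in untreated skin, with log2 changes of 0.23 ± 0.32 and 1.06 ± 0.33 (edgeR adjusted p = 0.629 and 0.116). S100a6 was above both untreated libraries in both afatinib libraries without passing the test.

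Fibroblast markers, 5 of 5 in the file and none at 0 throughout, summed to 3544 and 777 CPM with gefitinib, 5136 and 2037 CPM with afatinib, and 10087 and 5027 CPM in untreated skin. Neutrophil markers, also 5 of 5, summed to 6.66 and 5.12 CPM with gefitinib, 10.9 and 22.3 CPM with afatinib, and 1.11 and 1.34 CPM in untreated skin, and those of macrophages and dendritic cells to 56.4 and 40.6, 100 and 60.2, and 94.7 and 49.6 CPM. The part of these cells in the S100 values was not tested. The other S100 members were rare, with at most 6 counts of S100a5, S100a7a or S100a7l2 in any library. The 2 remaining members called higher with gefitinib, named after their values were seen, were S100vp with 22 and 20 counts and LOC108350059 with 10 and 20. Neither had a count in untreated skin, and neither was called with afatinib, where S100vp had 3 and 9 counts and LOC108350059 12 and 12.

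**Figure D4:**
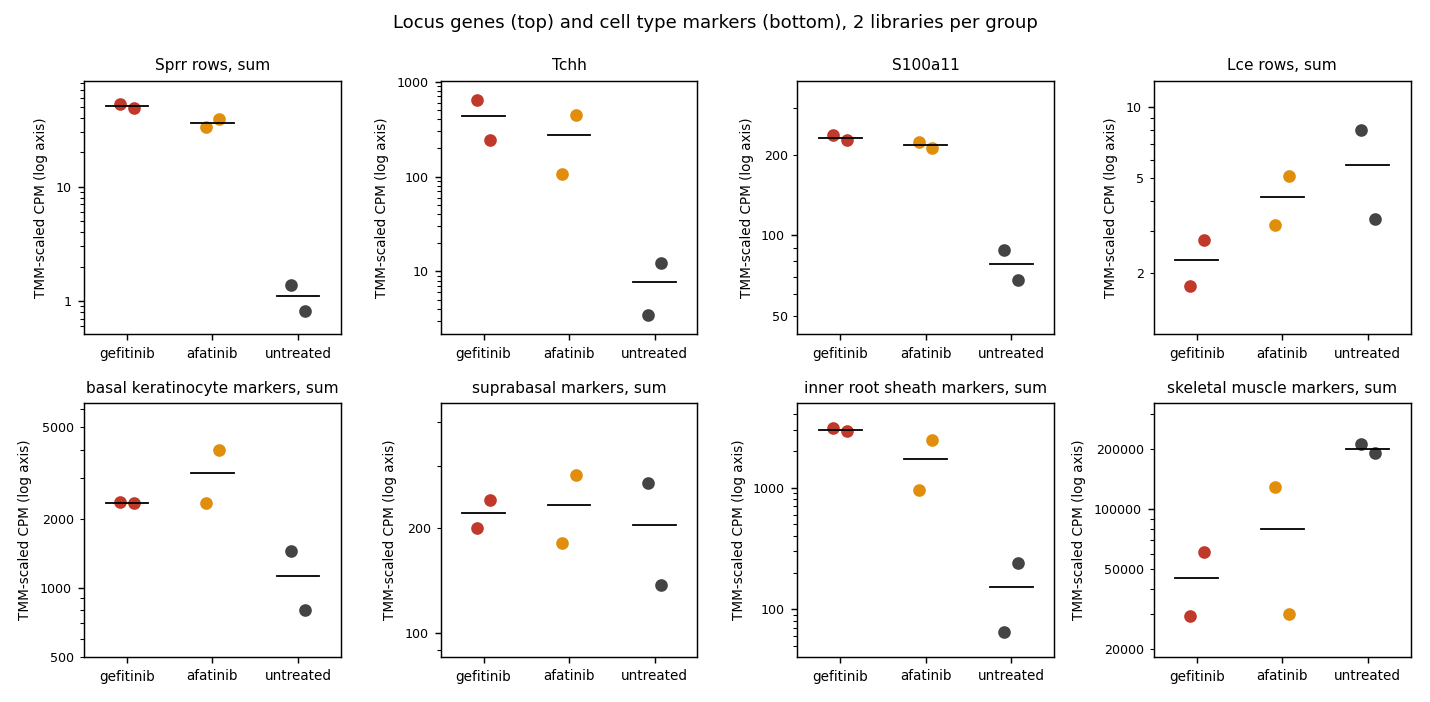
TMM-scaled CPM on log axes in the gefitinib, afatinib and untreated groups from left to right, with a dot per library and a line at the mean, for the Sprr sum, Tchh, S100a11 and the Lce sum (top) and for marker sums of basal and suprabasal keratinocytes, inner root sheath and skeletal muscle (bottom). The Sprr sum, Tchh, S100a11, basal and inner root sheath dots are higher in all 4 treated libraries than in both untreated ones, muscle dots are lower and suprabasal dots overlap. For the Lce sum both gefitinib dots lie below both untreated dots, and afatinib overlaps untreated.

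Afatinib was set against gefitinib in the same fit, at doses of 30 and 80 mg/kg. Of the 28 tested members, 0 were called, and 0.0% of all tested loci were. At an unadjusted p under 0.05, 5 of the 28 members and 946 of the 16398 loci differed. Among these 5 members the largest difference was in the involucrin row, at a log2 value of -2.39 (95% interval -3.94 to -0.85, edgeR adjusted p = 0.787), which was the 1 member called lower when no filter on low counts was used. AABR07072759.1 differed by -2.04 (-3.44 to -0.64) and Sprr1b by -0.87 (-1.70 to -0.04), whereas S100a6 differed by 0.83 (0.07 to 1.59) and AABR07012302.1 by 0.78 (0.04 to 1.52). For Sprr1a the interval was -0.91 to 0.46, for S100a11 -0.74 to 0.57 and for Tchh -2.60 to 1.27. These intervals leave room for differences of the size shown, so a lack of calls does not show that the drugs acted alike.

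Cornification genes that lie elsewhere in the genome were examined from a list of 36, of which 32 were in the file and 30 were tested. With gefitinib 20 of the 30 were called higher and 0 lower, where 12.3% and 5.45% of all tested loci were. The median log2 change was 2.35, beside 0.04 over all tested loci. With afatinib 13 were called higher and 0 lower, where 3.6% and 0.372% of all tested loci were. The median there was 2.33 beside 0.09. Tgm1, the transglutaminase that cross-links Sprr proteins and involucrin, had 37.8 and 30.5 CPM with gefitinib, 27 and 35.8 CPM with afatinib, and 1.45 and 2.15 CPM in untreated skin. Its log2 change was 4.23 ± 0.34 with gefitinib (SE, edgeR adjusted p = 0.00608) and 4.11 ± 0.34 with afatinib (edgeR adjusted p = 0.00519). Cnfn, the envelope protein cornifelin, changed by 6.46 ± 0.55 and 6.36 ± 0.55, and Grhl3, a transcription factor of barrier formation, by 3.89 ± 0.38 and 3.64 ± 0.38. Sdr9c7, an enzyme of the epidermal lipid envelope, changed by 5.52 ± 0.62 with gefitinib and 5.72 ± 0.62 with afatinib. Between the drugs 0 of the 30 were called. Without untreated replicate 1 or 2, 0 of the 30 were called in either drug comparison.

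The listed suprabasal markers differed among themselves. Krt1, Krt10, Krt2 and Dsc1 are also on the list of cornification genes above, so their results are not separate observations. The keratin Krt1 had 81.1 and 100 CPM with gefitinib, 94.8 and 104 CPM with afatinib, and 130 and 57.3 CPM in untreated skin, and Krt10 had 89.6 and 118, 78.3 and 152, and 135 and 76.5 CPM. Neither was called with either drug (edgeR adjusted p between 0.884 and 0.965), whereas Dsc1, a desmosomal cadherin, was called higher with both. Dsc1 had 16.9 and 16.5 CPM with gefitinib, 3.44 and 19.9 CPM with afatinib, and 0.692 and 0.698 CPM in untreated skin, with log2 changes of 4.57 ± 0.84 and 4.07 ± 0.83 (SE, edgeR adjusted p = 0.0172 and 0.0454). Krt2, a late epidermal keratin, was above both untreated libraries in all 4 treated ones but was not called, at 1.67 ± 0.52 and 0.79 ± 0.51 (edgeR adjusted p = 0.0624 and 0.408). Of the 6 basal keratinocyte markers, 2 were called higher with gefitinib and 0 with afatinib, where 12.3% and 3.6% of all tested loci were.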

How the data were processed

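Back skin RNA of rats was sequenced in 6 libraries. The submitters' processing notes name featureCounts 1.5.0-p3, HISAT2 2.0.5 and also DESeq2 1.16.1, with no role or order. The genome build, the annotation and the strand setting are not given in the sources, so reads of overlapping antisense genes cannot be told apart. Per the labels' protocols, libraries were made from 1 ug of Trizol RNA with an Illumina TruSeq kit. The first deposited table holds raw, unscaled read counts per gene. The deposited FPKM table was checked to be the count over gene length and over 1 divisor per library, so a scaling between libraries is built in. FPKM values were used to rank levels between genes and, as an alternative, for the share of the locus.

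Counts were filtered with filterByExpr, scaled with TMM and fitted with edgeR 4.0.16 (quasi-likelihood) (R 4.3.3). The 6 libraries entered 1 model with a coefficient for each of the 3 groups. Two-sided p-values were adjusted by Benjamini-Hochberg over 16398 loci, with a threshold of 0.05. The script was tested on simulated data. A group at 0 was set to 3 counts per library, and a group with 1 to 3 counts gives a ratio with its exact 95% interval. Exact and Wilson intervals treat reads as independent and cover counting error only, not the spread between libraries. The 95% intervals of log2 values come from the edgeR fit and include that spread. No molecular identifiers are named. Counts of replicates of 1 group differed beyond sampling noise. Alternatives used RLE scaling, library size only, no filter, a filter of 1 CPM in 2 libraries, DESeq2 1.42.0, limma-voom (limma 3.58.1), a replicate block, and each library left out in turn. Members and gene lists were chosen with earlier results of these data known. Members in a family list were named at a mean of at least 1 CPM in a group; others were named by smallest p among those called, and exceptions are stated.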

Additional observations from a re-analysis of the deposited data

How the results depend on the processing

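Of the 18 members called higher with gefitinib, 16 to 18 were called under the scaling, filter and tool alternatives and the replicate block, and 0 to 18 when a library was left out. The 3 called lower became 5 with no filter and 1 with a filter of 1 CPM in 2 libraries, and 0 to 5 with a library left out. Of the 15 higher with afatinib, limma-voom left 3 and the replicate block 6, and leaving out a library gave 0 to 17. Members lower with afatinib, 0 in the test reported, numbered 1 with library size only, 2 with no filter, 1 with DESeq2, and 0 to 1 with a library left out. Between the drugs, no filter called 1 member lower in place of 0. Cornification genes outside the locus ran from 0 to 22 with a library left out for each drug; with afatinib they numbered 21 with library size only, 24 with no filter, 22 with DESeq2 and 2 with limma-voom, against 13. As percent of summed FPKM in place of counts, the locus held 0.395 and 0.291 with gefitinib, 0.302 and 0.515 with afatinib, and 0.137 and 0.121 in untreated skin. The cause of these shifts was not tested; leaving out a library leaves a group with 1 sample, which is assumed to vary like the others. No log2 change of a member called in the test reported changed sign under these alternatives. Signs of the other named values were not compared. Higher calls made up 69.3% of all gefitinib calls (94.1% with library size only, 57.5% with no filter, 56.3% with DESeq2) and 90.6% of afatinib calls (78.3% with no filter, 75.5% with DESeq2). Deviations of same-numbered libraries correlated at 0.033, 0.037 and -0.174. Each group gives only 1 difference between its libraries, so these values cannot decide whether the numbers pair the samples. With the block, 19 of 21 gefitinib calls and 6 of 15 afatinib calls remained. The filter on low counts left 26 members with a count untested, with up to 72 counts in all.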
